A study of Mus musculus with 6 samples.

Results

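Imprinted growth genes are expressed from the allele of one parent only, and 9 of them were followed here in mouse embryonic fibroblasts (MEFs) that carry a heterozygous knockout of Nipbl. The 9 genes, picked by name, were Igf2, H19, Igf2r, Grb10, Cdkn1c, Phlda2, Peg3, Ndn and Kcnq1ot1. Of these, 8 had an entry among the 38483 genes of the count tables, 7 had reads and 6 passed the filter on low counts. Kcnq1ot1 was not analysed here, and Ndn, which lies on the plus strand, was listed at 0 in every culture, as were all 19214 genes annotated on that strand.

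RNA-seq was performed on 3 WT cultures (WT1, WT2 and WT3) and 3 Nipbl+/- cultures (Nipbl+/- 1, 2 and 3), and the question was what the loss of a single copy of Nipbl does to the transcriptome. All 6 cultures were labelled as CD1 strain and passage 3 and were grown in DMEM with fetal bovine serum. Per the study's methods, the cells came from mid-gestation embryos of a single pregnant mouse after the limbs, brain and internal organs had been taken out, so the WT embryos were littermates of the mutants. The labels do not say whether each culture came from its own embryo, so the p-values below measure the spread between these 6 cultures.

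Nipbl encodes the loader of cohesin, the ring-shaped complex that extrudes chromatin loops. At the Igf2 and H19 locus, CTCF and cohesin bind the imprinting control region of the maternal copy, where downstream enhancers are directed to H19, while DNA methylation of the paternal copy leaves the enhancers to Igf2. In the neighbouring domain, the long non-coding RNA Kcnq1ot1 is transcribed from the paternal copy and silences Cdkn1c, Phlda2 and further genes there, which are left to the maternal copy. Genes of paternal expression such as Igf2 tend to promote fetal growth, and those of maternal expression such as H19, Igf2r, Grb10, Cdkn1c and Phlda2 tend to restrain it.

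H19 and Igf2 each carry a microRNA gene within their borders, and both microRNA genes have an entry of their own in the deposited counts. The mature sequences, from RefSeq on GRCm38.p6, are shown because the Mir675 entry followed H19 from culture to culture while the Mir483 entry was at 0 throughout. Capitals mark the seed, bases 2 to 8 from the 5′ end. No seed was shared: each occurred in 1 mature mouse microRNA of the RefSeq table.
mmu-miR-675-5p (in H19, chr7:142577112-142577133, minus strand): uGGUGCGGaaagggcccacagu
mmu-miR-675-3p (in H19, chr7:142577078-142577099, minus strand): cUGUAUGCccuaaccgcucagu
mmu-miR-483-5p (in Igf2, chr7:142654968-142654989, minus strand): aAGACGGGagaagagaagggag
mmu-miR-483-3p (in Igf2, chr7:142654932-142654952, minus strand): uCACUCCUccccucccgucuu

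The Mir675 hairpin lies in an exon of 3 of the 7 annotated H19 transcripts, in 2 of them in exon 1. The Mir483 hairpin lies in no exon of the 9 annotated Igf2 transcripts. Reads counted for Mir675 cannot be told apart from reads of the H19 transcript itself.

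The promoters of Grb10 and Phlda2 are shown in the same build, the first because Grb10 was the tested member whose genotypes did not overlap and the second because Phlda2 had almost no reads. Each run covers 250 bases before to 50 bases after the RefSeq start, 5′ to 3′ on the minus strand on which both genes lie, with CG dinucleotides in capitals. For Grb10 this is the more CpG-dense of the RefSeq starts.
Grb10 (chr11:12037371-12037670): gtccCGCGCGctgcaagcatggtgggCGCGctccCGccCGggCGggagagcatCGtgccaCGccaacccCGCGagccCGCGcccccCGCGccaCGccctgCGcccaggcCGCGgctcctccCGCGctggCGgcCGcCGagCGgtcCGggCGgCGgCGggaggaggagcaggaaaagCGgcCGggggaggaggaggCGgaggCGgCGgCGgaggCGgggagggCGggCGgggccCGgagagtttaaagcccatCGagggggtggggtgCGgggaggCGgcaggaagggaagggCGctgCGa
Phlda2 (chr7:143502475-143502774): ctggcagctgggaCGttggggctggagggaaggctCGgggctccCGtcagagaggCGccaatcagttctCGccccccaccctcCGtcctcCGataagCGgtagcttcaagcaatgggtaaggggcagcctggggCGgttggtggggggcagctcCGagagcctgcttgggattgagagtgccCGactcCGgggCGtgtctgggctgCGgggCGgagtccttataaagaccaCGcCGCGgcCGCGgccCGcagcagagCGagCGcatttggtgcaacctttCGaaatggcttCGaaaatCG

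The Grb10 run held 45 CG dinucleotides, more than 98.1% of the 32851 promoters of the table, whose median was 7. The Phlda2 run held 26, more than 83.1% of them. The letters TATAAA, searched on both strands, occurred once in the Phlda2 run, with the first base at −30 relative to the start on the strand of the gene. They occurred in 13.6% of all promoters and in no other of the 11 promoters that the table held for 7 members. The other Grb10 start in the table, at chr11:12027922-12028221, held 9 CG dinucleotides, more than 54.2% of promoters, and the counts do not show which start was used in these cells.

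Total counts lay between 20307454 and 25990783 reads per culture. Levels are given as TMM-normalized CPM, the count scaled to the size of its library, for a gene across cultures, and as the deposited RPKM, which is scaled by gene length, for one gene against another. Across the 9061 genes tested, 94 were higher and 83 lower in Nipbl+/- at an adjusted p under 0.05, which is 1.95% (edgeR quasi-likelihood test, Benjamini-Hochberg adjustment), with a median log2 fold change of -0.01. Nipbl itself was at 136 ± 8.26 CPM in the WT cultures and 101 ± 0.505 CPM in Nipbl+/- (SD, n = 3 each), which is 0.741 of WT (log2 fold change -0.43 ± 0.06 SE, edgeR adjusted p = 0.0213), and this call was lost without WT1, Nipbl+/- 1 or Nipbl+/- 2 (adjusted p 0.0755, 0.0864 and 0.0772). Of 13 fibroblast markers, 11 lie on the unreported strand, and the other 2 were present, Fn1 at 14360.1 to 18188 CPM and Fap at 18.98 to 50.3 CPM. Xist, the RNA that coats the inactive X chromosome of female cells, was at 301 to 361 CPM in WT3, Nipbl+/- 1 and Nipbl+/- 2 and at most 1.13 CPM in the others. The cultures with Xist were thus 1 of 3 in WT and 2 of 3 in Nipbl+/-, so sex was not balanced between the genotypes.

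None of the 6 tested members passed the threshold, and 1 of them, Grb10, had an unadjusted p under 0.05, as had 16.9% of all genes tested, so the count is near that share. Log2 fold changes were above 0 for Igf2r, Grb10 and Peg3 and below 0 for H19, Igf2 and Cdkn1c, between -0.38 and 0.33, with a median of -0.01. In bulk RNA, fewer cells with a transcript and less transcript per cell cannot be told apart.

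**Figure D1:**
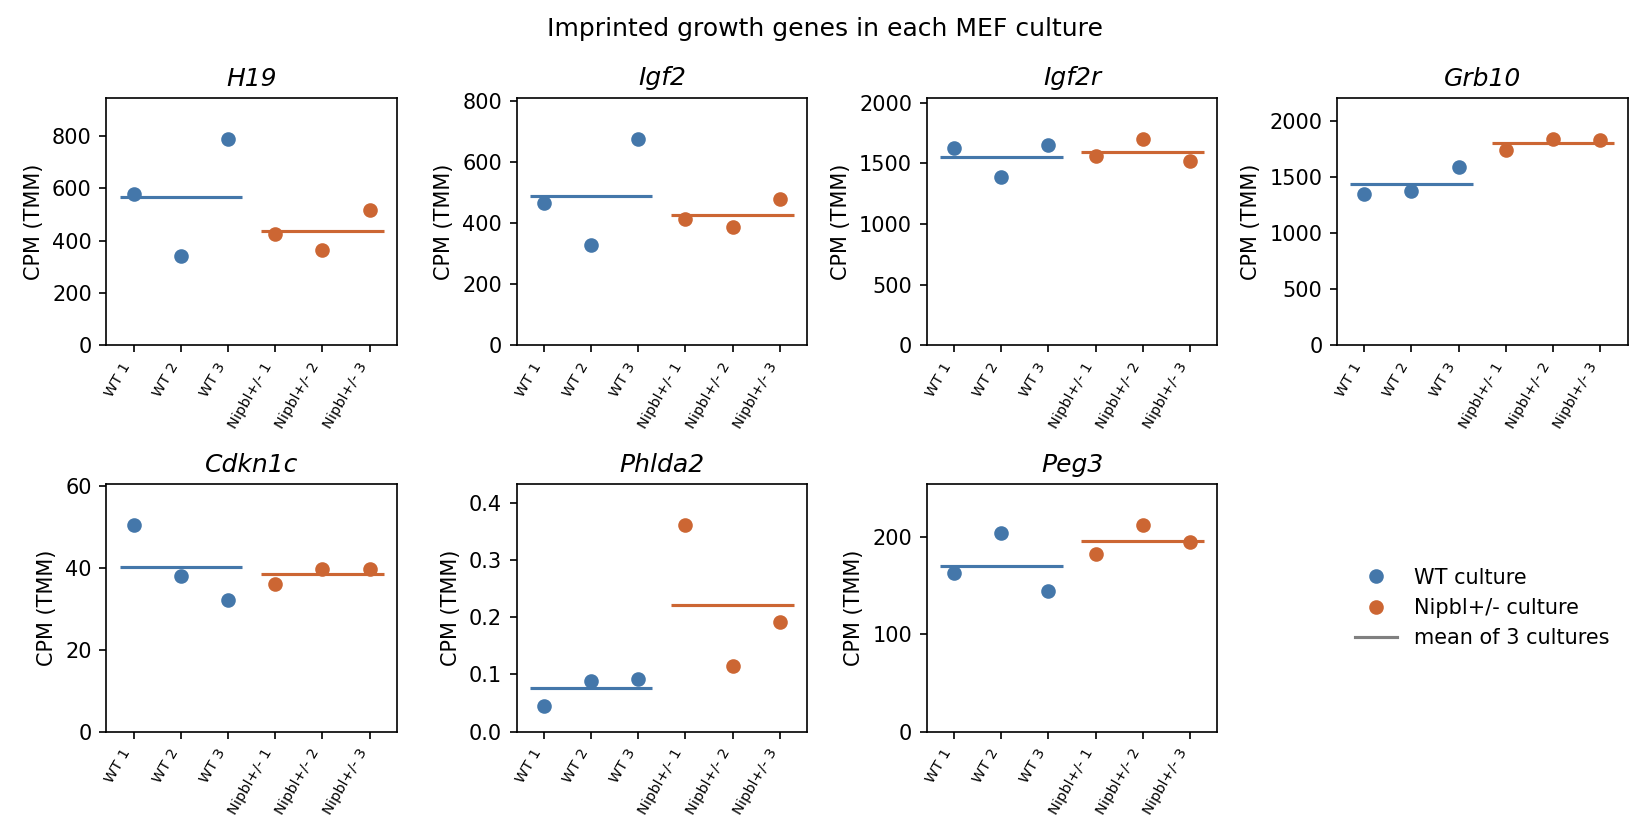
Level of the 7 imprinted growth genes with reads in each culture (y axis, TMM-normalized CPM on a linear scale from 0; x axis, the 6 cultures; points are cultures and lines the mean of 3). The 3 Nipbl+/- cultures lie above the 3 WT cultures for Grb10, and for Phlda2 at under 0.4 CPM, while WT3 holds the highest H19 and Igf2.

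Among the ligands of the IGF system, the growth factor Igf2 (ENSMUSG00000048583, chr7:142650766-142666816, minus strand, mm10 as for all files) was measured at 468 CPM in WT1, 328 in WT2 and 676 in WT3. In the mutants it was at 414 CPM in Nipbl+/- 1, 389.5 in Nipbl+/- 2 and 479 in Nipbl+/- 3. WT cultures held both the lowest and the highest level, so the mutant range fell inside the WT range. The means were 491 ± 175 CPM in the WT cultures and 427 ± 46.0 CPM in Nipbl+/- (SD, n = 3 each), a log2 fold change of -0.20 ± 0.22 (SE, edgeR adjusted p = 0.700). The fold was 0.871 with a 95% interval of 0.614 to 1.24. The direction rested on WT3: without that culture the log2 fold change was 0.10.

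H19 (ENSMUSG00000000031, chr7:142575529-142578143, minus strand), the maternally expressed long non-coding RNA next to Igf2, was at 578 CPM in WT1, 340.1 in WT2 and 788 in WT3. It was at 427 CPM in Nipbl+/- 1, 366 in Nipbl+/- 2 and 519 in Nipbl+/- 3. As with Igf2, WT2 was lowest, WT3 highest, and the mutants lay between. The means were 569 ± 224 CPM and 437 ± 76.9 CPM (SD, n = 3 each), a log2 fold change of -0.38 ± 0.26 (SE, edgeR adjusted p = 0.517) and a fold of 0.769 with a 95% interval of 0.506 to 1.17. Without WT3 the log2 fold change was -0.07, and without WT2 it was -0.64 (edgeR adjusted p = 0.0858).

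The Mir675 entry inside H19 was at 32.9, 19.5 and 44.2 CPM in WT1 to WT3 and at 22.7, 20.2 and 30.3 CPM in Nipbl+/- 1 to 3. The cultures stood in the same order as for H19. Its RPKM was 1.60 ± 0.0202 times that of H19 in WT and 1.57 ± 0.0732 times in Nipbl+/- (SD, n = 3 each), and its log2 fold change was -0.40 ± 0.27 (SE, edgeR adjusted p = 0.4999).

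The levels of H19 and Igf2 followed each other from culture to culture. Over the 6 cultures, Pearson's r of their log2 CPM was 0.970 (exact permutation test, two-sided, p = 0.00278, adjusted p = 0.0417 over the 15 pairs of tested members) and Spearman's rho was 0.943 (exact permutation p = 0.0167, adjusted p = 0.25). Without WT2 and WT3, the cultures farthest from the median of H19, r was 0.950 over the other 4. After the mean of each genotype was taken out it was 0.982. Both genes were read from the same libraries and so share their depth and composition, and they were named as a pair when the members were chosen. Genes outside the members followed each of them more closely, among them Igfbp3 (r = 0.994 with H19) and Scara3 (r = 0.995 with Igf2). The adjusted p covers the 15 pairs only.

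H19 and Peg3 ran in opposite order, with r = -0.920 (exact permutation p = 0.0125, adjusted p = 0.0938 over the 15 pairs) and rho = -0.886 (exact permutation p = 0.0333, adjusted p = 0.25). Without WT2 and WT3 this r was -0.790. No further pair of members had an adjusted p below that of H19 and Peg3. The ratio of the H19 RPKM to the Igf2 RPKM was narrower than either gene: 2.98, 2.50 and 2.81 in WT1 to WT3 and 2.49, 2.27 and 2.61 in Nipbl+/- 1 to 3. The mutant range overlapped that of WT, and the means were 2.76 ± 0.242 and 2.46 ± 0.177 (SD, n = 3 each).

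The WT cultures were spread widely. The highest WT culture held 2.32 times the H19 level of the lowest and 2.06 times the Igf2 level, against a median of 1.17 over all genes tested. In WT, 95.7% of tested genes had a smaller spread than H19 and 93.6% a smaller spread than Igf2. In Nipbl+/- the spreads were 1.42-fold for H19 and 1.23-fold for Igf2, with 80.4% and 65.4% of genes below them and a median of 1.15. Whether the spread differed between genotypes was not tested.

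By Pearson's r of log2 CPM over the 6 cultures, given as a description, the genes most like H19 among 9060 were Mir675 (0.995), Igfbp3 (0.994) and E4f1 (0.986). Among those most like Igf2 were Scara3 (0.995) and Gm6665 (0.991). Igfbp3, which encodes the main carrier of IGFs in serum, was at 131, 65.5 and 181 CPM in WT1 to WT3 and at 91.3, 79.9 and 118 CPM in Nipbl+/- 1 to 3. Its order over the cultures was that of H19. A cartilage marker also spread widely in WT: Col2a1 was at 472, 119 and 274 CPM in WT1 to WT3 and at 319, 255 and 309.8 CPM in Nipbl+/- 1 to 3. The part of cell makeup in the H19 and Igf2 levels was not tested.

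**Figure D2:**
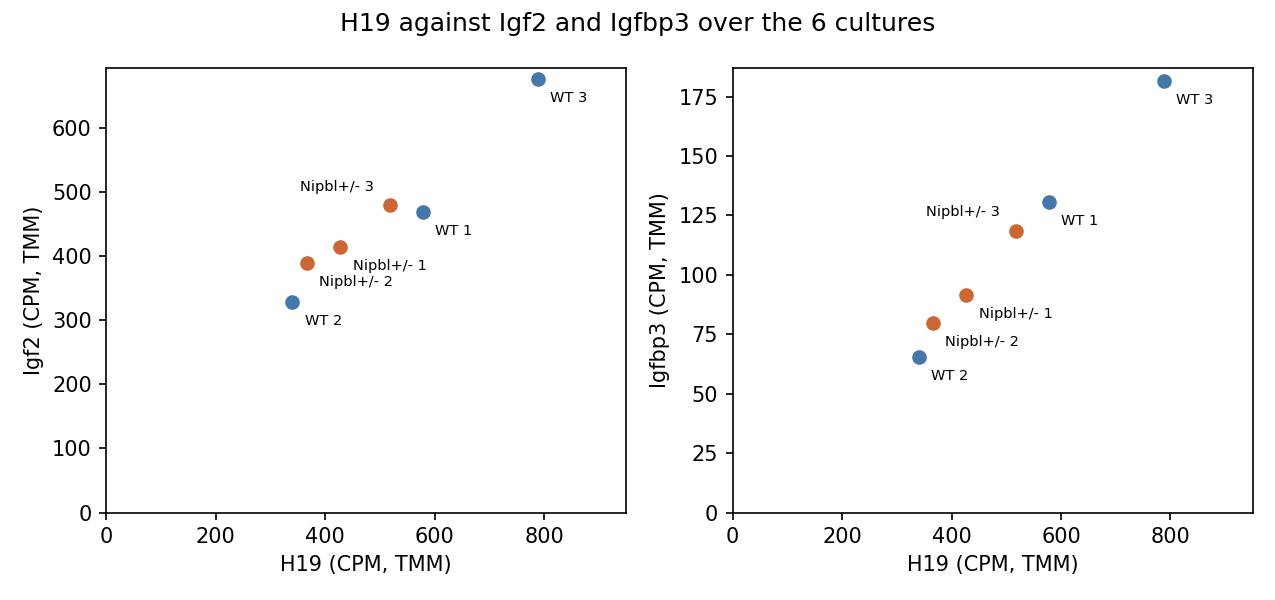
H19 level (x axis, TMM-normalized CPM) against Igf2 (left y axis) and Igfbp3 (right y axis) in each of the 6 cultures, WT in blue and Nipbl+/- in orange. In both panels WT2 (340.1 CPM of H19) is lowest and WT3 (788 CPM) highest, and the mutants lie between. Igfbp3 rises with H19 at every step. Igf2 does so except from Nipbl+/- 3 to WT1, where H19 goes from 519 to 578 CPM and Igf2 from 479 to 468 CPM.

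Igf2r (ENSMUSG00000023830, chr17:12682406-12769664, minus strand) encodes the receptor that removes IGF2 from the cell surface for degradation. It was at 1629.7, 1384.5 and 1653 CPM in WT1 to WT3 and at 1559, 1699 and 1516 CPM in Nipbl+/- 1 to 3. The genotypes overlapped, and no culture stood apart. The means were 1556 ± 149 CPM and 1591 ± 95.5 CPM (SD, n = 3 each), a log2 fold change of 0.03 ± 0.08 (SE, edgeR adjusted p = 0.872). The 95% interval of the fold was 0.907 to 1.15. The direction changed without WT2 (-0.05) and without Nipbl+/- 2 (-0.02). The ligand was at 0.513 ± 0.146 of its receptor in RPKM in WT and at 0.446 ± 0.0716 in Nipbl+/- (SD, n = 3 each), and these ratios overlapped too.

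Grb10 (ENSMUSG00000020176, chr11:11930508-12038683, minus strand) encodes an adaptor that binds the insulin and IGF1 receptors and dampens their signal. It was at 1348, 1380.4 and 1594 CPM in WT1 to WT3 and at 1747, 1839 and 1831 CPM in Nipbl+/- 1 to 3. All 3 mutant cultures were above all 3 WT cultures, as was the case for 12% of tested genes, while 10.8% had all mutant cultures below. Grb10 was the 1 tested member of 6 with no overlap. The means were 1441 ± 134 CPM and 1806 ± 51.0 CPM (SD, n = 3 each), a fold of 1.25 with a 95% interval of 1.13 to 1.39.

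The log2 fold change of Grb10 was 0.33 ± 0.07 (SE, unadjusted p = 0.00105), and its adjusted p of 0.0511 in the edgeR quasi-likelihood test just missed the threshold. With DESeq2 the adjusted p was 0.000867, with no filter on low counts 0.0153, and with the exact and likelihood ratio tests of edgeR 0.0154 and 0.0151. Without WT3 it was 0.0281, and with any other single culture left out it lay between 0.0873 and 0.173. The direction was higher in Nipbl+/- under all 16 alternatives, at log2 fold changes from 0.28 to 0.40.

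The macrophage and proliferation marker sums, like Grb10, were higher in all Nipbl+/- cultures than in all WT cultures. The order of these markers within a genotype was not compared with that of Grb10. The summed level of 9 macrophage markers, all 9 of which passed the filter, was 57.6 to 75.3 CPM in the WT cultures and 91.1 to 181 CPM in Nipbl+/-; 5 further markers of that list lie on the unreported strand. None of the 9 passed the threshold (8 had an unadjusted p under 0.05, beside 16.9% of all genes), and Lyz2, the most abundant, was at 37.5 ± 6.72 CPM in the WT cultures and 76.8 ± 31.0 CPM in Nipbl+/- (SD, n = 3 each). The summed level of 8 proliferation markers was 747 to 816 CPM in the WT cultures and 993 to 1137 CPM in Nipbl+/-. Of the 8, 4 (Mki67, Top2a, Cdk1 and Bub1) rose past the threshold, beside 1.95% of all genes tested called in either direction. The part of any of these lists in the Grb10 level was not tested.

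Cdkn1c (ENSMUSG00000037664, chr7:143458350-143461050, minus strand), which encodes the cyclin-dependent kinase inhibitor p57, was at 50.4, 38.1 and 32.1 CPM in WT1 to WT3. It was at 36.1, 39.9 and 39.9 CPM in Nipbl+/- 1 to 3. The mutant range lay inside the WT range. The means were 40.2 ± 9.35 CPM and 38.6 ± 2.19 CPM (SD, n = 3 each), a log2 fold change of -0.06 ± 0.15 (SE, edgeR adjusted p = 0.882), and the fold of 0.960 had a 95% interval of 0.762 to 1.21. Without WT1, the highest culture, the log2 fold change was 0.13. The genes most like Cdkn1c over the cultures, again as a description, were Scaf4 (r = 0.974), Gm12161 (0.971) and Mbip (0.964). Its correlation with H19 was -0.158 (exact permutation p = 0.797), against 0.970 for H19 and Igf2.

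Phlda2 (ENSMUSG00000010760, chr7:143501545-143502541, minus strand), a restrainer of placental growth, was nearly silent. Its counts were 1, 2 and 2 reads in WT1 to WT3 and 8, 3 and 4 reads in Nipbl+/- 1 to 3. That is 5 reads against 15, a rate ratio of 2.86 with an exact 95% interval of 0.988 to 10.1, which covers counting error only. The gene did not pass the filter, and in the fit without a filter its log2 fold change was 1.47 ± 0.80 (SE, edgeR adjusted p = 0.505). At this depth no difference was detectable.

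Peg3 (ENSMUSG00000002265, chr7:6703892-6730421, minus strand), a paternally expressed zinc finger gene, was at 162, 203 and 144 CPM in WT1 to WT3 and at 182, 211 and 194 CPM in Nipbl+/- 1 to 3. WT2 was above Nipbl+/- 1 and 3, so the genotypes overlapped. The means were 169.97 ± 30.3 CPM and 196 ± 14.7 CPM (SD, n = 3 each), with a log2 fold change of 0.21 ± 0.12 (SE, edgeR adjusted p = 0.428) and a fold of 1.15 with a 95% interval of 0.955 to 1.39.

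Per length, H19 was at a median of 196 RPKM over the 6 cultures, followed by Grb10 at 179, Igf2r at 161, Igf2 at 73.4, Cdkn1c at 19.4, Peg3 at 13.8 and Phlda2 at 0.134. The ranges of H19 (135 to 325), Grb10 (139 to 201) and Igf2r (138 to 175) overlapped. Igf2 (53.9 to 116), Cdkn1c (16.2 to 24.5) and Peg3 (10.6 to 15.5) did not overlap with the gene above them. Some members share ground with a gene on the other strand. Igf2 shares 7124 bases with Igf2as and Igf2r shares 28354 bases with Airn; both partners are plus-strand genes without a single read here, the kit is not stated to keep strand, and reads of a gene and of its antisense partner cannot be told apart.

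The domains of distal chromosome 7 were then compared gene by gene. In the H19 and Igf2 domain, 3 of 10 listed genes were tested (H19, Igf2 and Ctsd) and 5 lie on the plus strand. None passed the threshold, all 3 log2 fold changes were below 0, and their median was -0.20. In the Kcnq1ot1 domain, 8 entries of 7 genes were tested out of 17 listed, and 6 entries lie on the plus strand, Kcnq1 and Slc22a18 among them. None passed the threshold, 6 log2 fold changes were below 0 and 2 above, and their median was -0.08, beside -0.01 over all genes tested.

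In the Kcnq1ot1 domain the cultures of the genotypes did not overlap for 5 of the 8 entries, 4 lower in Nipbl+/- (Cars, Tnfrsf23 and both entries of Tnfrsf22) and 1 higher (Tnfrsf26), beside 10.8% lower and 12% higher over all genes tested. Cdkn1c was not among them, and 4 of the 5 belong to a cluster of TNF receptor family genes. Tnfrsf23, a decoy receptor for TRAIL, was at 54.2, 64.7 and 56.3 CPM in WT1 to WT3 and at 48.1, 46.0 and 46.2 CPM in Nipbl+/- 1 to 3, a log2 fold change of -0.32 ± 0.07 (SE, edgeR adjusted p = 0.0656). Its neighbour Tnfrsf22, listed as a pair of overlapping entries that may share reads and are uncertain for that reason, had a log2 fold change of -0.30 in both (edgeR adjusted p = 0.0827 and 0.103). Tnfrsf26, between Cars and Tnfrsf22, went the other way, from 4.49 ± 0.928 CPM in the WT cultures to 7.15 ± 0.742 CPM in Nipbl+/- (SD, n = 3 each; log2 fold change 0.67 ± 0.17 SE, edgeR adjusted p = 0.0969). None of these passed the threshold.

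The folds of the other genes of that domain lay between 0.931 and 1.06. Nap1l4, a histone chaperone, was at 163 ± 6.44 CPM in the WT cultures and 173 ± 4.25 CPM in Nipbl+/- (SD, n = 3 each; fold 1.06, 95% interval 0.973 to 1.15). Osbpl5, an oxysterol-binding protein, was at 190.1 ± 6.73 and 184 ± 2.25 CPM (SD, n = 3 each; fold 0.967, 95% interval 0.895 to 1.05), and Cars, a transfer RNA synthetase, had a fold of 0.931 (0.852 to 1.02) with the mutants all lower. These 3 genes had spreads of 1.08-fold to 1.17-fold over the 6 cultures, against 2.32-fold for H19 and 2.06-fold for Igf2. Cdkn1c, at 1.57-fold, stood between.

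Ctsd, the lysosomal protease cathepsin D beyond H19, was at 2064 ± 65.5 CPM in the WT cultures and 1867 ± 71.2 CPM in Nipbl+/- (SD, n = 3 each), with the mutants all lower and a log2 fold change of -0.14 ± 0.05 (SE, edgeR adjusted p = 0.162). Gm7290 (log2 fold change -0.14) and R74862 (-0.03), which lie between Igf2 and Cdkn1c, overlapped between genotypes. The maternally expressed Ascl2 had 0 to 6 reads per culture and Ins2 had none.

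**Figure D3:**
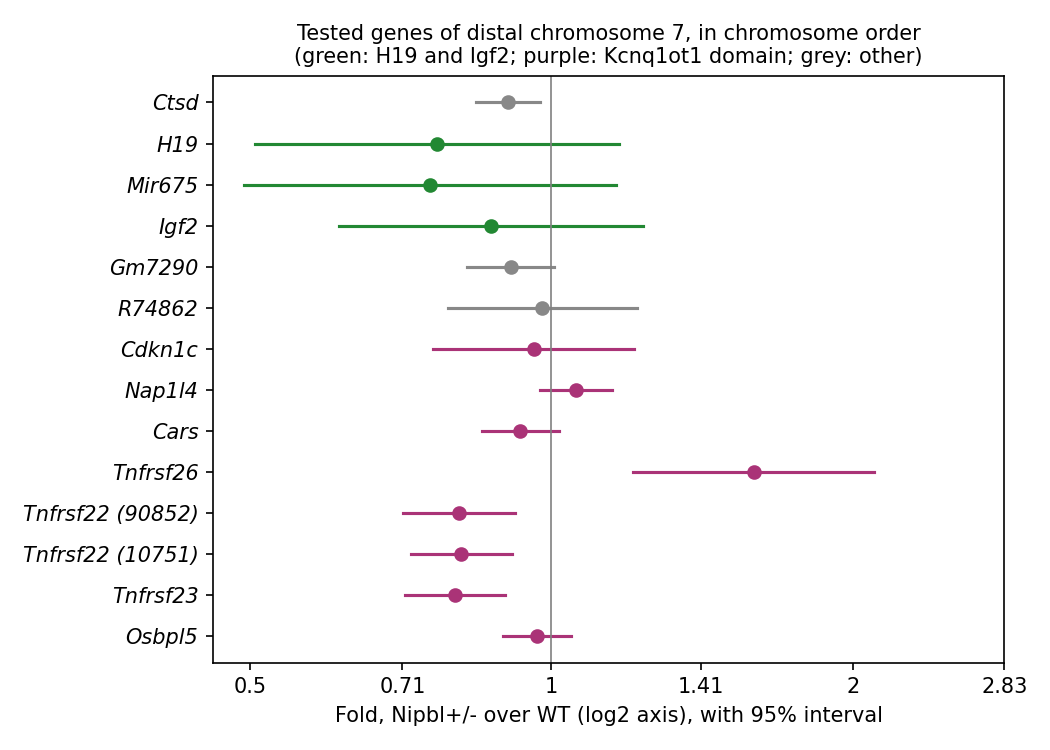
Fold of Nipbl+/- over WT with its 95% interval (x axis, log2-spaced) for the 14 tested entries between Ctsd and Osbpl5 on distal chromosome 7, in chromosome order; green marks H19, Mir675 and Igf2, purple the Kcnq1ot1 domain, grey the other entries. The intervals of H19, Mir675 and Igf2 include 1, while Tnfrsf26 (fold 1.59) lies on the other side of 1 from Tnfrsf22 and Tnfrsf23.

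Lists of imprinted genes by parental allele placed the members among others of their kind. The parental allele is the one given in the lists, and whether these cells express each gene from that allele alone was not tested. Of 42 maternally expressed genes, 18 lie on the plus strand and 17 were tested. The fold was above 1 for 7 and below 1 for 10, and the median log2 fold change was -0.05. The 1 that passed the threshold was lower, beside 1.95% of all genes tested called in either direction. That gene was Ano1, a calcium-activated chloride channel, at 44.9, 33.4 and 37.2 CPM in WT1 to WT3 and 26.5, 24.5 and 23.4 CPM in Nipbl+/- 1 to 3. Its fold was 0.644 (95% interval 0.540 to 0.767, edgeR adjusted p = 0.0330), and the call was lost when any culture but WT2 was left out. The genotypes did not overlap for 3 genes that were higher and 2 that were lower, shares near the 12% and 10.8% over all genes tested.

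Of 30 paternally expressed genes, 26 were in the tables, 15 lie on the plus strand and 9 were tested. Of the 9, 8 had a log2 fold change above 0, beside 4386 of all 9061 genes tested, Igf2 being the 1 below. The entries are not independent, as Snurf lies inside Snrpn, and Mkrn3 and Nap1l5 had only 15 to 42 reads per culture. The median of the 9 was 0.27, beside -0.01 over all genes tested. None passed the threshold, with 2 at an unadjusted p under 0.05 (16.9% over all genes). DESeq2 called 4 imprinted genes of either list higher and 2 lower, beside 237 higher and 212 lower across all genes. The amino acid transporter Slc38a4 had the highest value of this list, 0.54 ± 0.14 (SE, edgeR adjusted p = 0.104), at 42.7, 56.5 and 65.5 CPM in WT1 to WT3 and 90.1, 75.9 and 73.3 CPM in Nipbl+/- 1 to 3. Sgce, named after its values were seen, was at 43.0 ± 0.271 CPM in the WT cultures and 52.0 ± 3.09 CPM in Nipbl+/- (SD, n = 3 each; fold 1.21, edgeR adjusted p = 0.0581).

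**Figure D4:**
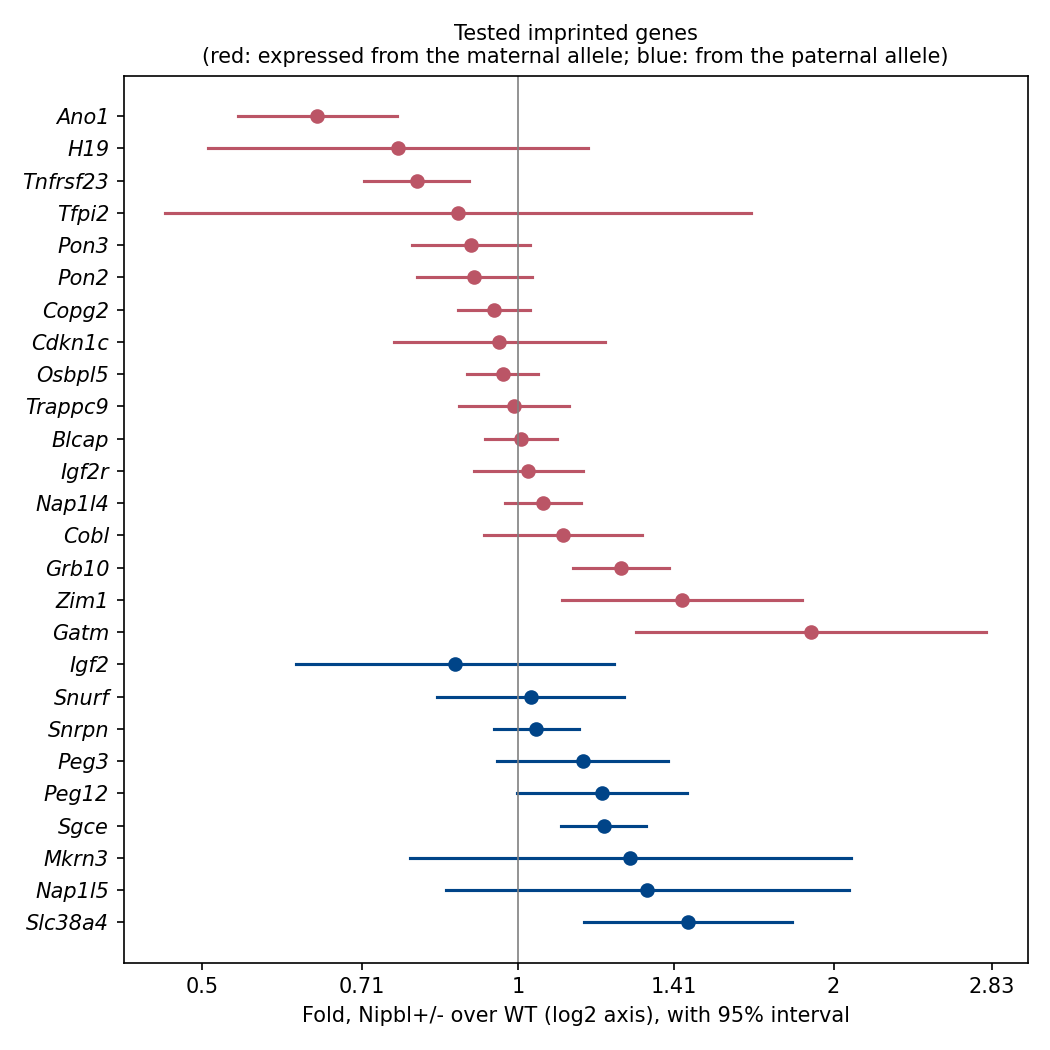
Fold of Nipbl+/- over WT with its 95% interval (x axis, log2-spaced) for the 26 tested imprinted genes. Red marks those listed as maternally and blue those listed as paternally expressed, and the allele was not measured here. Of the 9 listed as paternally expressed, 8 lie to the right of 1, beside 4386 of all 9061 genes tested. Those listed as maternally expressed run from Ano1 (0.644) to Gatm (1.90).

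The rest of the IGF system was then read from a list of 21 genes, of which 9, Igf1 and Igf1r among them, lie on the plus strand. Besides ligands, receptors, carriers, proteases and signal adaptors, it held Igf2bp1, Igf2bp2 and Igf2bp3, which encode mRNA-binding proteins and not IGF carriers. All of the other 12 genes were tested and none passed the threshold. Of these, 3 had an unadjusted p under 0.05, beside 16.9% of all genes, and the median log2 fold change was -0.05. Igf2bp1, Igf2bp2 and Igf2bp3 are included in these values, at log2 fold changes of 0.12, 0.10 and 0.11, and Igf2bp1 was among the 3. Igfbp7, the most abundant binding protein on the list, was at 1089.5, 1212 and 992 CPM in WT1 to WT3 and at 1053, 1014 and 929.9 CPM in Nipbl+/- 1 to 3, with overlap (log2 fold change -0.14 ± 0.08 SE, edgeR adjusted p = 0.423). Pappa2, a protease that frees IGFs from their binding proteins and was named here after its values were seen, was at 11.2, 8.63 and 7.66 CPM in WT1 to WT3 and at 5.82, 4.43 and 4.01 CPM in Nipbl+/- 1 to 3. The mutants were all lower, with a log2 fold change of -0.95 ± 0.19 (SE, edgeR adjusted p = 0.0511). The ligand Igf2, its receptor Igf2r and its carrier Igfbp3 each overlapped between genotypes.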

How the data were processed

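RNA was depleted of ribosomal RNA and made into libraries with a TruSeq RNA kit, which is not stated to keep strand. Per the labels, the cells were mouse embryonic fibroblasts, although the extraction text names mouse ES cells. The authors aligned reads to mm10 with TopHat2 2.0.10 (Ensembl 72 genes) and deposited a raw read count per gene and culture; the counting tool is not given in the sources used here. The authors also deposited RPKM values, which were used to compare genes by level.

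Counts were tested in R 4.3.3 with edgeR 4.0.16 (filterByExpr with a minimum count of 10, TMM, quasi-likelihood test, no covariates, Benjamini-Hochberg over 9061 genes, threshold 0.05). The standard error is the absolute log2 fold change over the square root of F, and 95% intervals follow from it. Ratios and correlations of log2 CPM used a prior count of 2, and exact permutation tests of correlations were two-sided. The procedure was tested on simulated data. Alternatives were other normalizations, filters and tests (DESeq2 1.42.0 among them), a replicate block, Xist as a covariate, and each culture left out.

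Members and lists were chosen with earlier results of these data known. Named were all members, the tested genes of both chromosome 7 domains, from other lists every gene past the threshold and at most 3 of highest mean CPM, Nipbl, and the 3 genes most like H19, Igf2 and Cdkn1c, of which 1 is not reported here. The planned ratios with Kcnq1ot1, a gene not analysed here, were not made. Sequences came from RefSeq (GRCm38.p6).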

Additional observations from a re-analysis of the deposited data

How the results depend on the processing

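Each genotype had 3 cultures, and Phlda2 had 1 to 8 reads per culture, below the filter. The direction of H19, Peg3 and Grb10 was the same under all 16 alternatives. Igf2 reversed without WT3 (0.10), Cdkn1c reversed with Xist as a covariate (0.0153) and without WT1 (0.13), and Igf2r reversed with Xist as a covariate (-0.0109), without WT2 (-0.0452) and without Nipbl+/- 2 (-0.0172). The cause was not tested. With 1 culture left out, log2 fold changes ran from -0.64 to -0.07 for H19, from -0.42 to 0.10 for Igf2, from -0.20 to 0.13 for Cdkn1c, from 0.10 to 0.35 for Peg3, from 0.28 to 0.40 for Grb10 and from -0.0452 to 0.0779 for Igf2r.

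Grb10 passed the threshold with no filter on low counts and with the edgeR exact test, the edgeR likelihood ratio test and DESeq2 (log2 fold change 0.33 in each), and without WT3 (0.40). Members called then numbered 1 under each of these, against 0, and 0 to 1 with a culture left out. Genes called higher across all genes, 94, numbered 142 with library size alone, 173 with no filter, 218 with the exact test, 224 with the likelihood ratio test and 237 with DESeq2, and genes called lower, 83, numbered 152 with no filter, then 213, 218 and 212 with those tests. With a culture left out they ranged from 1 to 130 higher and from 2 to 138 lower. Imprinted genes called higher, 0, numbered 1 with library size alone, 4 with no filter and with each of the 3 other tests, and 0 to 1 with a culture left out. Those called lower, 1, numbered 2 with no filter and with each of those tests, and 0 to 1 with a culture left out. IGF genes called lower, 0, numbered 1 with library size alone, no filter, the 3 tests and the replicate block, and 0 with any culture left out. The Cdkn1c to Phlda2 ratio (log2, Nipbl+/- minus WT) was -0.89 and moved to -1.50 on the RPKM scale, to -1.27 with a prior count of 0.5 and to -0.58 with a prior count of 5, and its range with a culture left out was -1.18 to -0.54.

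The labels do not say that replicate numbers pair the cultures. Correlations of the same-numbered deviations were -0.06, -0.04 and -0.14, and whether same-numbered cultures were handled together was not tested. With a replicate block, 34 genes were called higher and 52 lower, Grb10 had a log2 fold change of 0.33 (edgeR adjusted p = 0.0582), and no member was called. The block gave H19 a log2 fold change of -0.31 ± 0.13 (SE, edgeR adjusted p = 0.305), against an SE of 0.26 without it.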

Other observations

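Of 7 listed cyclin-dependent kinase inhibitors, Cdkn1c among them, 5 were tested and none passed the threshold. Of the 5, 3 had an unadjusted p under 0.05, beside 16.9% of all genes tested. The 2 on the plus strand were Cdkn1a and Cdkn1b, so Cdkn1c was the only Cdkn1 gene read. Cdkn2a, a tumour suppressor locus, was at 154, 127 and 142 CPM in WT1 to WT3 and at 97.0, 115 and 93.1 CPM in Nipbl+/- 1 to 3. All mutant cultures were lower, with a log2 fold change of -0.47 ± 0.10 (SE, edgeR adjusted p = 0.0536). Its neighbour Cdkn2b was at 163 ± 10.2 CPM in the WT cultures and 128 ± 14.7 CPM in Nipbl+/- (SD, n = 3 each), with a log2 fold change of -0.35 ± 0.09 (SE, edgeR adjusted p = 0.0870). Cdkn2c and Cdkn2d went the other way, with all mutant cultures higher, at log2 fold changes of 0.40 ± 0.13 (SE, edgeR adjusted p = 0.177) and 0.22 ± 0.11 (SE, edgeR adjusted p = 0.384). The genotypes thus did not overlap for 2 inhibitors that were lower and 2 that were higher, beside 10.8% and 12% of all genes tested, while Cdkn1c had a mutant range inside that of WT.

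Of 24 factors that bind or mark imprinted loci or form loops, 10 were tested and 13 lie on the plus strand, Ctcf included. Besides Nipbl, the 1 factor that passed the threshold was Rad21, a cohesin subunit, while 1.95% of all genes tested passed it. Rad21 rose from 108 ± 2.92 CPM in the WT cultures to 129 ± 3.18 CPM in Nipbl+/- (SD, n = 3 each), with a log2 fold change of 0.25 ± 0.05 (SE, edgeR adjusted p = 0.0467). Dnmt1, which maintains DNA methylation, was at 123, 121 and 132 CPM in WT1 to WT3 and at 147, 147 and 159 CPM in Nipbl+/- 1 to 3, with no overlap (edgeR adjusted p = 0.0626). Smchd1, a chromatin protein needed at some imprinted genes, was at 158 ± 4.70 CPM and 181 ± 10.6 CPM (SD, n = 3 each; edgeR adjusted p = 0.146). The 8 tested proliferation markers were all higher in every mutant culture than in every WT culture, as were 12% of all genes tested, and their part in the levels of these factors was not tested.

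Among markers of other cell types, 6 skeletal muscle markers were tested, with none past the threshold, and 6 lie on the unreported plus strand. The list summed to 247 to 351 CPM in the WT cultures and 304 to 351 CPM in Nipbl+/-. Most of this was Acta1, at 237 to 338 CPM in WT and 293 to 339 CPM in Nipbl+/-. Myf5 and Pax7 had at most 2 reads in any culture. With 5 of 8 on the unreported plus strand, endothelial markers summed to 12.9 to 16.4 CPM in the WT cultures and 11.4 to 16.0 CPM in Nipbl+/-. With 3 of 6 on that strand, epithelial markers summed to 0.363 to 0.534 CPM and 1.03 to 2.53 CPM, and of 6 neural markers only Sox10, at no more than 0.356 CPM in any culture, lies on the minus strand. The plus-strand markers could not be read, so these sums say nothing of them.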
